A study of Mus musculus with 8 samples.

Results

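The RNA of mouse Th17 cells that lack the microRNA cluster miR-183/96/182 was compared with that of wild-type Th17 cells, gene by gene. The comparison takes in 11398 of the 24426 genes with a symbol in the deposited table, namely those with at least 10 estimated counts in 2 or more of the 4 libraries. Of these, 11392 could be tested and 6 could not. The cells came from C57BL/6J mice of genotype miR-183C+/+ (wild type, 2 libraries, here WT1 and WT2) or miR-183C-/- (knockout, 2 libraries, KO1 and KO2). All were cultured under a condition that the labels call Th17(23), harvested on day 4 to 5, and sequenced as poly(A)-selected RNA. The same series holds 2 libraries of Th17 cells carrying a control vector and 2 of Th17 cells overexpressing miR-96, whose values are given beside the 4 libraries where they help to place a difference. The genotype of the cells that received a vector is not stated. Neither the age and sex of the mice nor whether the duplicates came from separate animals is stated, so p-values measure only the spread between libraries. That spread was estimated within the 4 groups of all 8 libraries, also those outside the comparison. The growth protocol says that GFP-positive cells were sorted, whereas the labels of the wild-type and knockout libraries describe them as not transduced; where a GFP signal would have come from is not given.

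Th17 cells are the CD4+ helper T cells that make IL-17A and IL-17F, guard mucosal surfaces and drive tissue inflammation in autoimmune models. The miR-183/96/182 cluster is a single transcription unit that yields 3 microRNAs with closely related seeds, the bases at positions 2 to 8 that pair with messenger RNAs and lower their stability or translation. It is best known in sensory cells, and in T cells miR-182 is known to act on Foxo1, a transcription factor that maintains quiescence. A messenger RNA held down by the cluster would be released when the cluster is deleted, while genes further downstream may move either way.

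The mature microRNAs are shown because they define which messenger RNAs carry a matching site. Each is written 5′ to 3′ from RefSeq (GRCm38.p6, minus strand of chromosome 6), with its seed in capitals. The seeds of miR-96 and miR-182 differ only at their last base, and those of miR-183 and miR-96 only at their first.
mmu-miR-183-5p (chr6:30169711-30169732): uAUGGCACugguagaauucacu
mmu-miR-96-5p (chr6:30169506-30169528): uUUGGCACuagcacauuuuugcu
mmu-miR-182-5p (chr6:30165962-30165986): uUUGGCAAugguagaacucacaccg

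Foxo1 lies on chromosome 3 (chr3:52268336-52353221, plus strand, GRCm38), and the 6240 bases of its longest annotated 3′ UTR hold one match to each of these seeds. The stretches around the matches are shown with the 7 matching bases in capitals, since Foxo1 is the best known target of the cluster in T cells.
Foxo1, miR-183 match (chr3:52347204-52347226): agataaggactGTGCCATtggga
Foxo1, miR-96 match (chr3:52347230-52347252): attacaatgaaGTGCCAAactca
Foxo1, miR-182 match (chr3:52350871-52350893): tgtgtttgctcTTGCCAAaagct

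Libraries held 7142429 to 10766968 estimated counts in the wild-type and knockout groups. Poly(A)-selected libraries do not hold mature microRNAs, so the deleted genes could not be used to check the genotype: Mir183 and Mir182 were at 0 counts in all 8 libraries, and Mir96 was at 0 in the 4 wild-type and knockout libraries. KO1 stood apart in several ways. Its values were not whole numbers (beyond a tolerance of 0.02) for 55.6% of the genes detected in it, against 6.38 to 7.42% in the other libraries, and it lay farther from wild type than KO2. The median absolute log2 difference over tested genes was 0.492 between KO1 and WT1 and 0.515 between KO1 and WT2, but 0.311 between KO2 and WT1 and 0.329 between KO2 and WT2. Replicates of a genotype differed by a median of 0.167 (wild type) and 0.256 (knockout). Xist, which is transcribed from the inactive X chromosome of female cells, was at 1217 and 389.7 CPM (counts scaled to library size) in WT1 and WT2 and at 0 and 144 in KO1 and KO2, while the Y-linked Ddx3y was at 50.9 and 118 CPM in wild type and 68.6 and 98.9 CPM in knockout. Xist thus differed widely between libraries of 1 genotype, was absent from KO1 and was lower in both knockout libraries than in either wild-type library. The part of the sex of the cells in the results was not tested. With Xist and the Y-linked genes left out of the fit, 1569 genes were called.

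Across the transcriptome many genes differed between knockout and wild type, in both directions. Of 11851 genes tested in the series, 1544 differed between knockout and wild type (edgeR quasi-likelihood test, adjusted p under 0.05), which is 13.0% of those tested. This share is the background against which each count of called genes in a list below is to be read. The higher genes numbered 786 (6.63%) and the lower ones 758 (6.40%), and 1538 of all those called belong to the set described here, 785 higher and 753 lower. Called genes had a median absolute log2 fold change of 0.99, and 753 of them changed at least 2-fold, 496 upwards and 257 downwards. In all 1544 the libraries of the genotypes did not overlap, as held for 69.8% of all tested genes. No adjusted p was under 0.02, the smallest being 0.0211, and the calls lay close to the threshold.

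The count of calls rested on particular libraries. Without KO1, edgeR called 0 genes at an adjusted p under 0.05, although 1864 had an unadjusted p under 0.05. Leaving out WT2 left 1 call, Jchain, and leaving out WT1 left 20. Leaving out KO2 raised the count to 1975. In 1467 of the 1544 called genes KO1 lay farther than KO2 from the wild-type mean. Every one of the 1544 genes kept its direction when any one library was left out. Since the libraries of the genotypes overlapped in none of them, this was all but fixed in advance. It lends the calls no support. A fold change computed without KO1, which then compares KO2 alone with both wild-type libraries, is given below for the main genes. It carries no call of its own, and such fits assume that the lone library varies like those of the other groups.

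Calls with an adjusted p just under the threshold also ended in other fits. Among the genes named below, Ccl4 and Thy1 were no longer called with RLE factors (edgeR adjusted p = 0.0501 and 0.0531) and Ccl4 also not with DESeq2 (adjusted p = 0.0546). Upper-quartile factors ended the calls of Batf, Bid, Cblb, Ccl4, Cd44, Il12rb2, Inhba, Itga4, Lta, Myc, Prf1, Stat5a and Thy1 (edgeR adjusted p = 0.0664 at most). Leaving out a control vector or miR-96 library ended those of Batf, Cblb, Ccl4, Cd3e, Inhba, Lta, Myc, Stat5a and Thy1 in at least 1 case (edgeR adjusted p = 0.0503 to 0.0631). Leaving out KO2 ended those of Bach2, Batf, Ccr1, Cd44, Elovl5, Fas, H2-Ob, Id1, Il12rb2, Il13, Inhba, Itga4, Lig1, Nlrc5, Prf1 and Stat5a (edgeR adjusted p = 0.0517 to 0.122). Each count of called genes in a list below fell to 0 without KO1 and, apart from 1 call among plasma cell genes, without WT2.

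**Figure D1:**
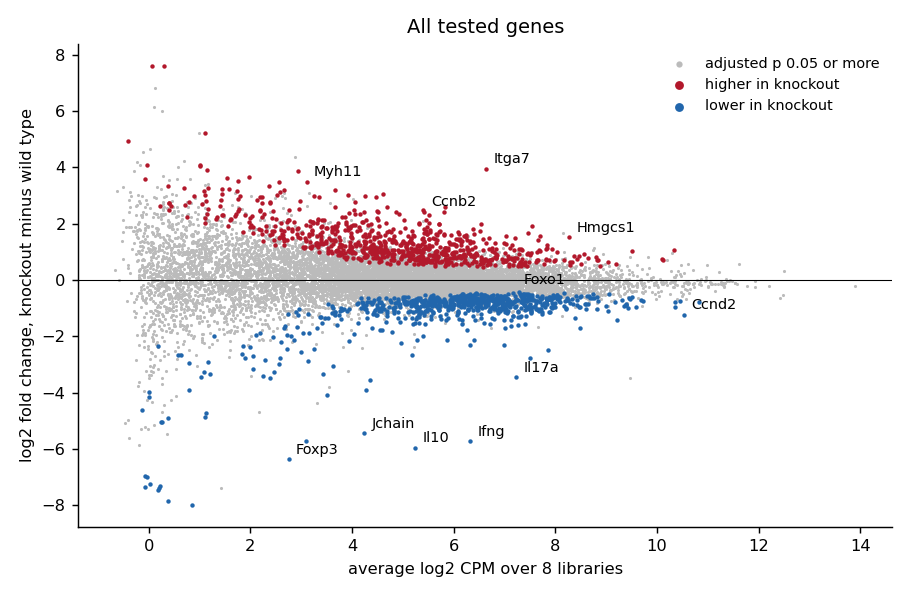
Average log2 CPM over the 8 libraries (x axis) against the log2 fold change of knockout minus wild type (y axis) for each of the 11851 tested genes, with genes higher in knockout in red, lower in blue and the others in grey. Il10, Ifng and Jchain lie below -5 on the log2 scale and Itga7 near 4, while Foxo1 lies among the grey points.

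Il17a and several other Th17 signature genes were lower in the knockout. Of 17 core Th17 genes tested, 6 were called lower and 0 higher, 3 had a log2 fold change above 0, and the list had a median log2 fold change of -0.96, against -0.01 over all tested genes, and of -0.86 without KO1. Il17a, the signature cytokine of the lineage (chr1:20730905-20734496), was at 165 and 261 CPM in the wild-type libraries and 14.5 and 24.4 CPM in the knockout libraries (edgeR adjusted p = 0.0211, log2 fold change -3.45, SE 0.37, and -3.10 without KO1). Both knockout libraries thus lay well under both wild-type libraries, and a lack of overlap held for all 1544 called genes. Its neighbour Il17f (chr1:20777146-20790617), which encodes the partner chain, was at 211 and 327 CPM in wild type and 42.2 and 54.2 CPM in knockout (edgeR adjusted p = 0.0246, log2 fold change -2.48, SE 0.35). The control vector libraries held 122 and 90.9 CPM of Il17a and 234 and 129 CPM of Il17f. The miR-96 libraries held 189.8 and 330.0 CPM of Il17a and 336 and 525 CPM of Il17f, and no test was made between these libraries and the others. In bulk RNA of this kind, fewer cells of a type and less RNA per cell cannot be told apart.

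Among the transcription factors of the program, Maf, which drives Il10 and other Th17 genes, fell from 181 and 277 to 71.0 and 83.0 CPM (edgeR adjusted p = 0.0246, log2 fold change -1.57, SE 0.25). Batf, a pioneer factor of early Th17 commitment, was at 63.7 and 98.0 CPM in wild type and 47.5 and 49.5 CPM in knockout (edgeR adjusted p = 0.0423, log2 fold change -0.74). Both factors were thus lower in both knockout libraries than in either wild-type library, and no called gene overlapped between genotypes. Irf4, which cooperates with Batf, was at 1197 and 1220.0 CPM in wild type and 821 and 875 CPM in knockout (edgeR adjusted p = 0.0536, log2 fold change -0.51). Stat3, the signal transducer downstream of IL-6 and IL-23, overlapped between genotypes, with 253 and 279.6 CPM in wild type and 367 and 273 CPM in knockout.

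Of the receptors for cytokines that sustain Th17 cells, 1 was called. Il1r1, the signalling receptor for IL-1, fell from 24.0 and 41.8 CPM in wild type to 7.44 and 11.7 CPM in knockout (edgeR adjusted p = 0.0261, log2 fold change -1.78, SE 0.34, and -1.48 without KO1). It was the only called gene among the 18 tested genes of signalling by these cytokines and by IL-6 and IL-23, whose median log2 fold change was -0.07. Il23r, a further gene named after its values were seen, was at 38.4 and 54.1 CPM in wild type and 28.4 and 24.3 CPM in knockout (edgeR adjusted p = 0.0800, log2 fold change -0.81). Il21, a cytokine that amplifies Th17 and follicular helper responses, fell from 918 and 1124 CPM to 455 and 592 CPM (edgeR adjusted p = 0.0317, log2 fold change -0.96, SE 0.22). The fall of Il21 was shallower than that of Il17a and was present in both knockout libraries, as was the change in every called gene.

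**Figure D2:**
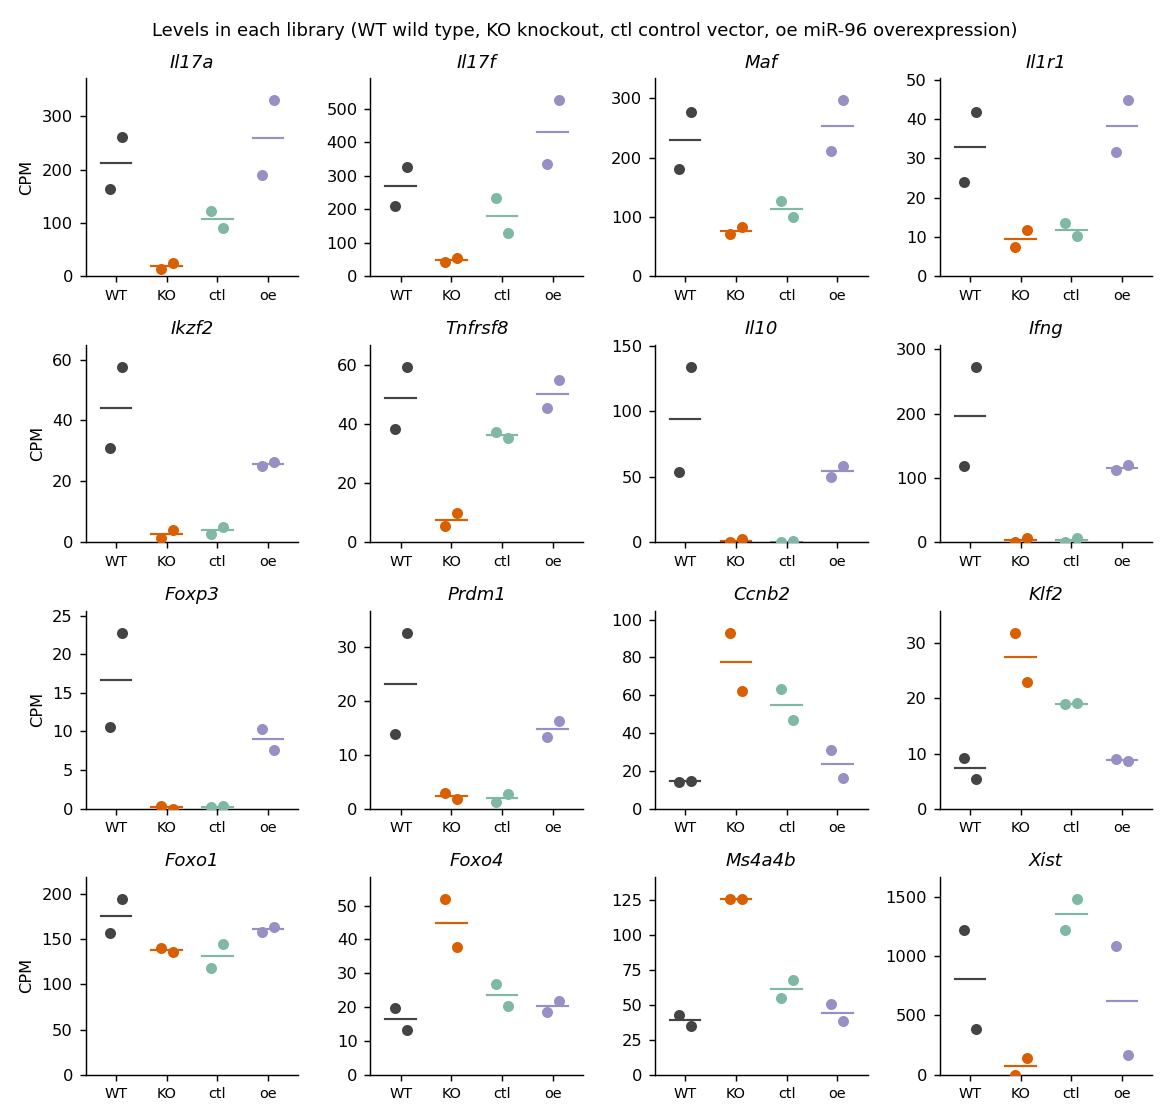
CPM (y axis, from 0, a scale for each gene) of 16 genes in each library of the 4 groups (x axis); points are libraries and bars the mean of a group. Knockout points lie below both wild-type points for Il17a, Il17f, Maf, Il1r1, Tnfrsf8, Ikzf2, Il10, Ifng, Foxp3, Prdm1, Foxo1 and Xist. They lie above them for Ccnb2, Klf2, Foxo4 and Ms4a4b.

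Genes tied to the disease-causing form of Th17 cells were lower where they were called. Of 18 such genes tested, 4 were called lower and 0 higher (median log2 fold change -0.72, and -0.62 without KO1). Tbx21, which encodes T-bet, fell from 57.3 and 98.8 to 23.7 and 36.7 CPM (edgeR adjusted p = 0.0290, log2 fold change -1.37, SE 0.29). The inflammatory chemokine Ccl3 was at 231 and 472 CPM in wild type and 11.6 and 90.5 CPM in knockout (edgeR adjusted p = 0.0400, log2 fold change -2.78, SE 0.72, and -1.94 without KO1), and Ccl4, its close relative, at 164 and 300.2 CPM in wild type and 13.3 and 81.0 CPM in knockout (edgeR adjusted p = 0.0495, log2 fold change -2.29). In both chemokine genes KO1 was several times lower than KO2. Cxcl3, a neutrophil attractant, had 2.44 and 4.86 CPM in wild type and 0 and 0.238 CPM in knockout, where only 2 counts were present in all; the ratio of wild type to knockout was 29.8, with a 95% interval of 7.94 to 251 that covers counting error only. Csf2 (GM-CSF), named after its values were seen, was at 23.0 and 33.8 CPM in wild type and 1.76 and 12.6 CPM in knockout and was not called (edgeR adjusted p = 0.0901, log2 fold change -1.96, SE 0.71); likewise Il22, at 8.53 and 14.5 CPM in wild type and 0 and 1.55 CPM in knockout (edgeR adjusted p = 0.0616, log2 fold change -3.81).

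Il10, the anti-inflammatory cytokine that marks the non-pathogenic form, fell furthest of all called genes whose log2 CPM averaged 3 or more. It was at 54.0 and 134 CPM in WT1 and WT2 and 0.676 and 2.26 CPM in KO1 and KO2 (edgeR adjusted p = 0.0211, log2 fold change -5.95, SE 0.64, and -5.35 without KO1). The control vector libraries, which held 0.0784 and 0.773 CPM, were as low as the knockout, and the miR-96 libraries, at 50.3 and 58.7 CPM, lay in the wild-type range or just under it. Of 8 non-pathogenic Th17 genes tested, 2 were called, Il10 and Maf, both lower, and the list's median log2 fold change was -0.84. Called genes tied to either form were thus lower in the knockout, and the difference between the lists was not tested.

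Foxo1 itself did not pass the test. Its level was 157 and 194 CPM in WT1 and WT2 and 141 and 135 CPM in KO1 and KO2 (edgeR adjusted p = 0.151, log2 fold change -0.35, SE 0.16), and -0.36 without KO1. The knockout libraries thus lay a little under the wild-type ones, with no rise of the messenger RNA that holds the 3 matches printed above. The control vector libraries were at 118 and 145 CPM and the miR-96 libraries at 158 and 163 CPM. Of its relatives, Foxo3 overlapped between genotypes at 36.2 and 29.1 CPM in wild type and 41.1 and 35.7 CPM in knockout, while Foxo4 rose from 19.6 and 13.4 CPM to 51.9 and 37.8 CPM (edgeR adjusted p = 0.0251, log2 fold change 1.45, SE 0.26).

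Several genes that depend on Foxo1 in T cells were higher. Of 13 tested, 4 rose and 1 fell, with a median log2 fold change of 0.47. Klf2, the factor that holds T cells quiescent and induces their egress receptors, rose from 9.26 and 5.35 CPM to 31.9 and 23.0 CPM (edgeR adjusted p = 0.0246, log2 fold change 1.92, SE 0.29, and 1.68 without KO1). The cell cycle inhibitor Cdkn1b rose by 0.98 and Tcf7, which encodes TCF-1 of naive and memory cells, by 0.89 on the log2 scale (edgeR adjusted p = 0.0284 and 0.0470). Both knockout libraries exceeded both wild-type libraries in these 3 genes, a lack of overlap shared by all 1544 called genes. Bach2, a repressor that restrains effector differentiation, went the other way, from 299 and 314 to 177 and 199 CPM (edgeR adjusted p = 0.0400, log2 fold change -0.71). Ccr7, at 283 and 257 CPM in wild type and 388 and 356 CPM in knockout, and Il7r, at 164 and 171 CPM in wild type and 89.9 and 106 CPM in knockout, were not called. Cd44, the marker of activated and memory T cells, fell from 272 and 280.3 to 175 and 189 CPM (edgeR adjusted p = 0.0430, log2 fold change -0.60).

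Markers of CD4 T cells were present in all 4 libraries. Cd4 was at 380.4 and 415 CPM in wild type and 579 and 483 CPM in knockout, and the summed level of 8 CD4 T cell identity genes was 2743 and 2789 CPM in wild type and 3075 and 2935 CPM in knockout. Among these 8, Cd3e, a chain of the T cell receptor complex, rose (edgeR adjusted p = 0.0470, log2 fold change 0.51) and Thy1, a T cell surface glycoprotein, fell (edgeR adjusted p = 0.0498, log2 fold change -0.63). Naive and memory T cell genes were mixed, with 3 of 10 called higher (among them Klf2 and Tcf7) and 1 lower (Cd44).

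Cytokines and regulators of other helper lineages were among the largest falls. Ifng, the Th1 cytokine, was at 119 and 273 CPM in wild type and 0 and 7.15 CPM in knockout (edgeR adjusted p = 0.0254, log2 fold change -5.72, SE 1.04). The log2 fold change was -4.76 without KO1 and -13.89 without KO2, where the remaining knockout library is at 0 and the fitted value is no measure of size. With the control vector it was at 0.392 and 6.48 CPM and with miR-96 at 112 and 119.8 CPM. Of 12 Th1 genes tested, 3 were called lower and 0 higher, the third being the IL-12 receptor chain Il12rb2 (edgeR adjusted p = 0.0466, log2 fold change -0.64). Among 9 Th2 genes, 2 were called lower. Il13 was at 29.4 and 61.1 CPM in wild type and 2.57 and 5.12 CPM in knockout (edgeR adjusted p = 0.0317, log2 fold change -3.54), and Il5, with 3 counts in the knockout, gave a ratio of 16.4 (95% interval of counting error 5.33 to 81.9). The more abundant Th2 genes Il4ra (edgeR adjusted p = 0.233, log2 fold change -0.23) and Stat6 (edgeR adjusted p = 0.196, log2 fold change 0.27) were not called.

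Regulatory T cell genes were called in both directions. Foxp3, the factor that defines these cells, was at 10.6 and 22.8 CPM in wild type and 0.406 and 0 CPM in knockout (edgeR adjusted p = 0.0222). With 3 counts in the knockout the ratio was 91.2, with a 95% interval of 30.9 to 445 for counting error only. Ikzf2, which encodes Helios, was at 30.8 and 57.7 CPM in wild type and 1.62 and 4.17 CPM in knockout (edgeR adjusted p = 0.0222, log2 fold change -3.91, SE 0.48). Cells with the control vector held 0.157 and 0.290 CPM of Foxp3 and 2.75 and 5.22 CPM of Ikzf2, and the miR-96 libraries 10.4 and 7.59 CPM of Foxp3 and 24.9 and 26.5 CPM of Ikzf2. Izumo1r, which encodes folate receptor 4 of regulatory T cells, rose from 179 and 138 to 418 and 328 CPM (edgeR adjusted p = 0.0246, log2 fold change 1.23). Il2ra, the high-affinity chain of the IL-2 receptor, was at 1847 and 1897 CPM in wild type and 1355 and 1369 CPM in knockout and was not called (edgeR adjusted p = 0.0582, log2 fold change -0.46). Ctla4, an inhibitory receptor, overlapped between genotypes. Of 12 regulatory T cell genes tested, 4 fell and 1 rose.

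Among 8 follicular helper T cell genes, 3 fell and 1 rose. Bcl6, their master regulator, fell from 18.9 and 23.9 to 8.66 and 11.7 CPM (edgeR adjusted p = 0.0290, log2 fold change -1.07, SE 0.23). Cxcr5, the follicle homing receptor, was at 5.12 and 12.8 CPM in wild type and 0.812 and 1.67 CPM in knockout (edgeR adjusted p = 0.0315, log2 fold change -2.83), and Sh2d1a, which encodes the adaptor SAP, rose (edgeR adjusted p = 0.0423, log2 fold change 0.76). Pdcd1 and Icos were not called, at log2 fold changes of -0.53 and -0.67.

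Some cytotoxic and B lineage transcripts were lower as well, with 3 of 9 cytotoxic granule genes, 3 of 7 B cell genes and 3 of 7 plasma cell genes called lower and 0 higher. Gzma, which encodes granzyme A, was at 11 and 29.7 CPM in wild type and 0 and 0.715 CPM in knockout (edgeR adjusted p = 0.0246, log2 fold change -5.71, SE 0.82). Its log2 fold change was -4.79 without KO1 and -10.63 without KO2, where again the remaining knockout library is at 0. Gzmd was at 1.34 and 2.97 CPM in wild type and at 0 in both knockout libraries, at least 11.8-fold lower when the knockout group is set to 3 counts. Perforin (Prf1) fell from 9.02 and 19.4 to 4.6 and 3.22 CPM (edgeR adjusted p = 0.0419, log2 fold change -1.87). Gzmb, named after its values were seen, overlapped at 641 and 672 CPM in wild type and 414 and 744 CPM in knockout. Jchain, the joining chain of secreted antibodies, was at 24.4 and 64.3 CPM in wild type and 1.22 and 0.834 CPM in knockout (edgeR adjusted p = 0.0211, log2 fold change -5.43, SE 0.54), and Mzb1, an antibody-folding factor, at 15.4 and 37.7 CPM in wild type and 0.271 and 2.74 CPM in knockout (edgeR adjusted p = 0.0248, log2 fold change -4.09). Prdm1, which encodes Blimp-1 of plasma cells and of effector T cells, fell from 13.8 and 32.6 to 2.84 and 1.79 CPM (edgeR adjusted p = 0.0246, log2 fold change -3.33, SE 0.52). Cd79a, a signalling chain of the B cell receptor, was at 9.75 and 16.6 CPM in wild type and 2.03 and 1.31 CPM in knockout (edgeR adjusted p = 0.0246, log2 fold change -2.99). Its partner Cd79b was at 7.43 and 9.71 CPM in wild type and 1.22 and 0.715 CPM in knockout (edgeR adjusted p = 0.0246, log2 fold change -3.15).

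As whole lists, markers of B cells, plasma cells and CD8 T or NK cells had lower summed levels in both knockout libraries than in either wild-type library. The summed level of 11 B cell genes, of which 7 were tested and 3 called lower, was 39.6 and 61.8 CPM in WT1 and WT2, 16.5 and 16.9 CPM in KO1 and KO2, 29.0 and 18.3 CPM with the control vector and 41.7 and 46.5 CPM in the miR-96 libraries. For 10 genes of CD8 T and NK cells, of which 8 were tested and 3 called lower, the sum was 46.9 and 81.4 CPM in wild type, 13.9 and 17.4 CPM in knockout, 16.9 and 21.3 CPM with the control vector and 56.3 and 56.6 CPM in the miR-96 libraries, with Klrb1c and Ncr1 at 0 in the wild-type and knockout libraries. Plasma cell genes (7 tested, 3 lower) summed to 1577 and 1673 CPM in wild type and 1042 and 1128 CPM in knockout, mostly from Irf4 and Xbp1, which T cells also express; Tnfrsf17 was at 0. Gzma and Prf1, described above, belong to the list of CD8 T and NK cells and make up a large part of its wild-type sum. The part of these cell types in the fall of Il10, Ifng, Gzma and the regulatory T cell genes was not tested.

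Markers of myeloid cells were low and none was called. Of the 6 tested macrophage genes edgeR called 0, with 1 at p under 0.05 before adjustment and 0 called by DESeq2, and of the 5 tested dendritic cell genes 0, with 2 at p under 0.05 before adjustment and 0 called by DESeq2. Of the 2 tested neutrophil genes edgeR called 0 and DESeq2 1, with 1 at an unadjusted p under 0.05, and the single tested mast cell gene, Kit, was not called. Macrophage genes summed to 9.26 and 14.6 CPM in wild type and 17.0 and 8.93 CPM in knockout, with Fcgr1, C1qb and Marco at 0. Dendritic cell genes summed to 53.5 and 103 CPM in wild type and 29.4 and 41.0 CPM in knockout, largely from Batf3 and Ccl22, and neutrophil genes to 15 and 30.6 CPM in wild type and 20.4 and 12.5 CPM in knockout, with S100a8, S100a9, Elane, Csf3r and Ngp at 0. No erythroid gene reached the level needed for a test, and the 2 tested genes of gamma delta T cells, Sox13 and Blk, were not called.

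Called interferon-inducible GTPases were lower in the knockout and called genes of the type I interferon response higher. Of 19 tested GTPases, which attack the vacuoles of intracellular pathogens and respond most to interferon-gamma, 6 were lower and 0 higher, with a median log2 fold change of -1.15 and of -0.82 without KO1. Gbp4 fell from 182.7 and 246 to 38.3 and 92.2 CPM (edgeR adjusted p = 0.0327, log2 fold change -1.71, SE 0.40). Gbp6 fell by 2.12, Gbp8 by 1.52 and Tgtp2 by 2.31 on the log2 scale (edgeR adjusted p = 0.0323, 0.0268 and 0.0271). These families hold near-identical copies between which the authors' counting could split reads, so values of single members are uncertain.

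Of 20 tested genes that type I interferon induces, 7 rose and 0 fell, with a median log2 fold change of 0.99 and of 0.80 without KO1. The summed level of the list, by contrast, was not higher, at 1198 and 1586 CPM in wild type and 1049 and 1199 CPM in knockout. Irf7, the amplifier of the type I response, rose from 5.61 and 8.72 CPM to 35.0 and 22.8 CPM (edgeR adjusted p = 0.0246, log2 fold change 2.00, SE 0.30). The RNA helicase Dhx58 rose from 7.68 and 7.33 to 35.3 and 27.6 CPM (edgeR adjusted p = 0.0211, log2 fold change 2.07, SE 0.21, and 1.90 without KO1). Levels of the antiviral GTPase Mx2, at 1.58 and 1.19 CPM in wild type and 11.8 and 9.89 CPM in knockout, and of Ifi44, at 1.46 and 2.58 CPM in wild type and 20.6 and 12.4 CPM in knockout, were low in wild type and rose by 2.96 and 3 on the log2 scale (edgeR adjusted p = 0.0246 and 0.0251). Irf9, at 45.3 and 44.5 CPM in wild type and 44.6 and 46.2 CPM in knockout, and Stat2, at 80.9 and 99.0 CPM in wild type and 90.1 and 88.1 CPM in knockout, overlapped between genotypes. With the control vector, libraries held 15.7 and 17.4 CPM of Irf7 and 24.8 and 23.4 CPM of Dhx58, and the miR-96 libraries 6.60 and 5.35 CPM of Irf7 and 10.3 and 11.9 CPM of Dhx58.

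Antigen presentation genes were called in small numbers and in both directions. Of 13 genes of MHC class I and the immunoproteasome, 2 fell, the peptide trimmer Erap1 (edgeR adjusted p = 0.0289, log2 fold change -1.31, SE 0.27) and the class I transactivator Nlrc5 (edgeR adjusted p = 0.0400, log2 fold change -0.99), a share of 15.4% against 13.0% of all tested genes. Of 9 MHC class II genes, H2-Aa fell from 8.16 and 19.9 to 2.3 and 2.86 CPM (edgeR adjusted p = 0.0258, log2 fold change -2.44) and H2-Ob rose from 1.71 and 1.78 to 7.03 and 5.96 CPM (edgeR adjusted p = 0.0486, log2 fold change 1.89).

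Called chemokine genes were lower. Of 10 tested ligands 4 were lower and 0 higher, the fourth beside Ccl3, Ccl4 and Cxcl3 being Ccl9, at 7.31 and 15.2 CPM in wild type and 0.271 and 1.79 CPM in knockout (edgeR adjusted p = 0.0284, log2 fold change -3.40). The list's median log2 fold change was -2.21, and -1.35 without KO1. Of 14 receptors 3 fell, namely Cxcr5, Ccr1 (edgeR adjusted p = 0.0317, log2 fold change -2.45) and Cxcr6, a receptor of tissue-resident effector cells, which went from 15 and 35.3 to 2.03 and 3.93 CPM (edgeR adjusted p = 0.0246, log2 fold change -3.06, SE 0.46). As a whole the receptors were not lower, with 7 above 0, 7 below 0 and a median log2 fold change of -0.05.

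Genes of cell division were higher in the knockout. Of 21 mitosis genes tested, 17 rose and 0 fell, and the median log2 fold change was 1.47. All 21 had no overlap between genotypes, as held for 69.8% of all tested genes. Without KO1 the median was 1.19. Ccnb2, a B-type cyclin of mitotic entry, rose from 14.3 and 14.6 CPM to 93.1 and 62.3 CPM (edgeR adjusted p = 0.0246, log2 fold change 2.43, SE 0.32, and 2.13 without KO1). Nusap1, a spindle protein, rose from 47.4 and 42.6 to 175 and 128 CPM (edgeR adjusted p = 0.0250, log2 fold change 1.75, SE 0.31). The checkpoint kinases Aurkb and Bub1b rose by 1.69 and 1.62 on the log2 scale (edgeR adjusted p = 0.0258 and 0.0261). The summed level of the list was 1676 and 1637 CPM in wild type, 4195 and 3152 CPM in knockout, 2923 and 3505 CPM with the control vector and 2385 and 1113 CPM in the miR-96 libraries, which differed widely from each other.

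Few genes of DNA replication were called. Of 20 DNA replication genes 1 was called, the ligase Lig1, which rose from 125 and 122 to 225 and 198 CPM (edgeR adjusted p = 0.0480, log2 fold change 0.78), and the list's median log2 fold change was -0.04. Of 18 genes of the G1 phase 4 rose and 1 fell. E2f2, a factor that activates S phase genes, rose by 1.10 and the inhibitor Cdkn2d by 1.43 on the log2 scale (edgeR adjusted p = 0.0272 and 0.0275). Ccnd2, the main D-type cyclin of activated T cells, fell from 2058 and 2385 CPM to 693 and 1196 CPM (edgeR adjusted p = 0.0317, log2 fold change -1.23, SE 0.28).

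Replication-dependent histone genes showed the highest median of all lists. Of 25 tested, 9 rose and 0 fell, with a median log2 fold change of 2.09 and of 2.18 without KO1. The linker histone Hist1h1b was at 0.975 and 0.793 CPM in wild type and 11.1 and 11.3 CPM in knockout (edgeR adjusted p = 0.0246, log2 fold change 3.65, SE 0.62), and Hist1h1a at 0.487 and 0.198 CPM in wild type and 4.73 and 6.67 CPM in knockout (edgeR adjusted p = 0.0271, log2 fold change 4.05). KO1 was not the farther of the knockout libraries in the sum of the list, which was 43.3 and 42.5 CPM in wild type, 154 and 184 CPM in knockout, 71.5 and 37.4 CPM with the control vector and 34.9 and 31.8 CPM in the miR-96 libraries. Messenger RNAs of these histones end in a stem-loop in place of a poly(A) tail, so poly(A)-selected libraries hold only a small part of them, and their near-identical copies make single members uncertain. The efficiency of poly(A) selection in each library was not tested.

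**Figure D3:**
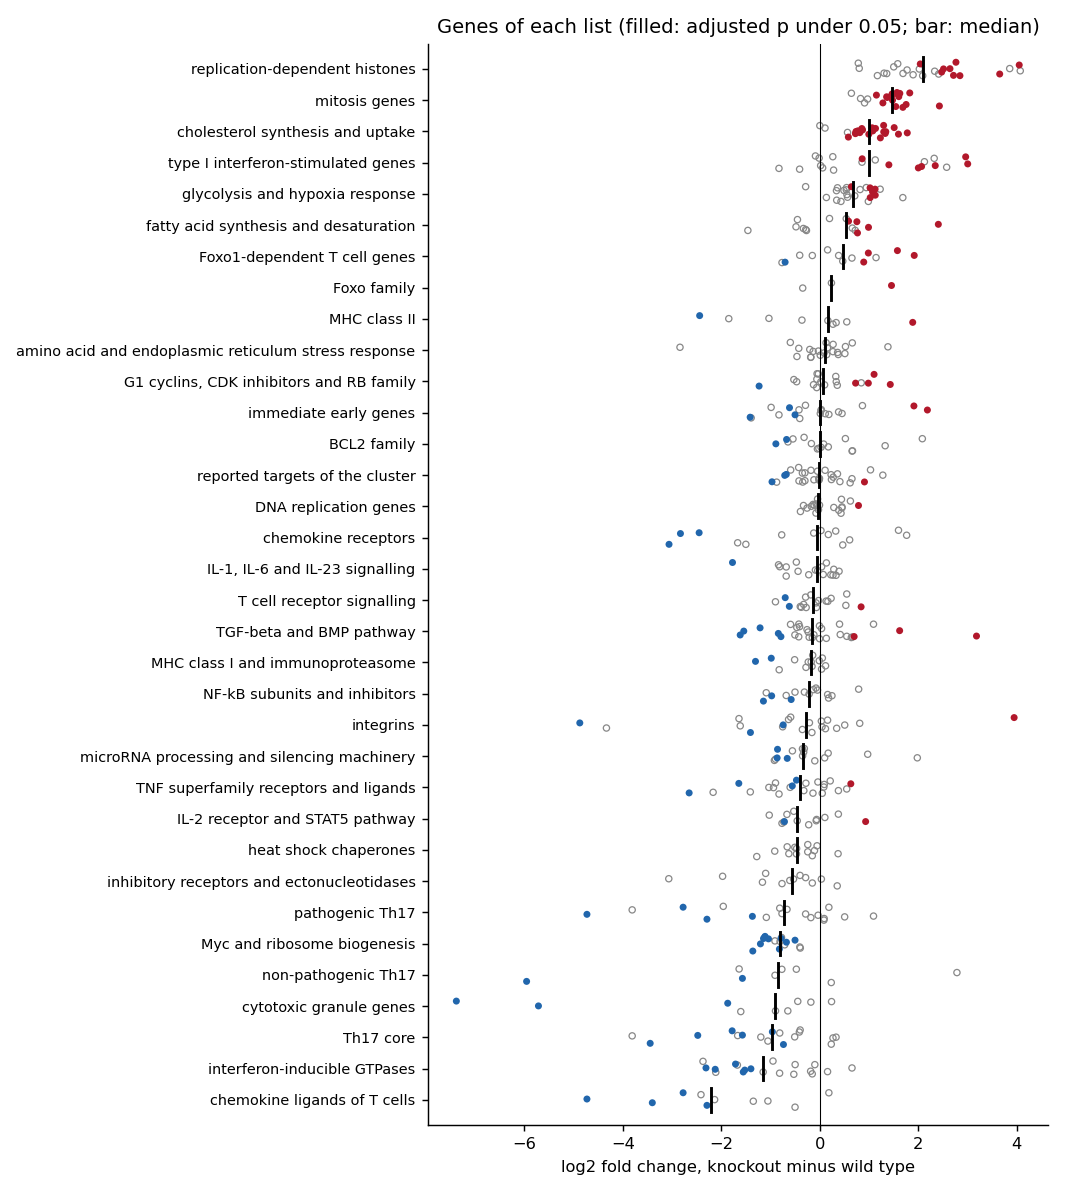
Log2 fold change of knockout minus wild type (x axis) for the tested genes of each gene list other than the cell type markers (y axis, ordered by median); filled points are called (red higher, blue lower), open points are not, and black bars are medians. Medians run from -2.21 for chemokine ligands to 2.09 for replication-dependent histones.

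Cholesterol synthesis was raised along nearly its whole length. Of 23 tested genes 20 rose and 0 fell, with a median log2 fold change of 0.99 and of 0.76 without KO1. Hmgcs1, which makes HMG-CoA at the start of the pathway, rose from 172 and 182 CPM to 591 and 419 CPM (edgeR adjusted p = 0.0246, log2 fold change 1.51, SE 0.20, and 1.26 without KO1). Lanosterol synthase (Lss) rose from 48.0 and 50.7 to 149 and 93.6 CPM (edgeR adjusted p = 0.0246, log2 fold change 1.30, SE 0.22). In Tm7sf2, a sterol reductase, the rise was 1.78, and in the mevalonate pathway kinase Pmvk 1.33, on the log2 scale (edgeR adjusted p = 0.0246 and 0.0250). Idi1, at 201 and 240.2 CPM in wild type and 239 and 235 CPM in knockout, and Hsd17b7, at 55.4 and 58.0 CPM in wild type and 55.2 and 58.2 CPM in knockout, overlapped between genotypes. Srebf2, which encodes the factor that induces the pathway, was itself higher (edgeR adjusted p = 0.0258, log2 fold change 0.85).

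Of 15 genes of fatty acid synthesis and desaturation, 5 rose and 0 fell. Fads2, a fatty acid desaturase, rose from 11.6 and 10.5 CPM to 77.6 and 39.5 CPM (edgeR adjusted p = 0.0246, log2 fold change 2.41, SE 0.34). The factor Srebf1, the desaturase Fads1 and the elongase Elovl5 rose by 0.76, 0.99 and 0.58 on the log2 scale (edgeR adjusted p = 0.0303, 0.0306 and 0.0340). In each of these 4 genes KO1 was the higher of the knockout libraries.

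Glycolysis and hypoxia response genes were called upwards only, with 7 of 24 higher, 0 lower and a median log2 fold change of 0.68, or 0.44 without KO1. Hexokinase 1 (Hk1) rose from 179.6 and 188 to 462 and 317 CPM (edgeR adjusted p = 0.0254, log2 fold change 1.08, SE 0.20), and the isomerase Tpi1 from 525 and 689 to 1456 and 1008 CPM (edgeR adjusted p = 0.0309, log2 fold change 1.02, SE 0.23). The lactate exporter Slc16a3 and the pyruvate dehydrogenase kinase Pdk1 rose by 1.13 and 1.02 on the log2 scale (edgeR adjusted p = 0.0317 and 0.0327). Summed levels were 11811 and 12449 CPM in wild type and 21768 and 16430.0 CPM in knockout.

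Ribosome biogenesis genes, in contrast, were lower. Of 16 tested genes of Myc and ribosome biogenesis, 10 fell and 0 rose, all 16 lay below 0, and the median log2 fold change was -0.81, or -0.56 without KO1. Polr1b, a core subunit of RNA polymerase I, fell from 124 and 129.5 to 41.5 and 68.2 CPM (edgeR adjusted p = 0.0269, log2 fold change -1.21, SE 0.24). The ribosome assembly factor Rrs1 fell from 146 and 152 to 40.0 and 75.8 CPM (edgeR adjusted p = 0.0298, log2 fold change -1.36, SE 0.29, and -0.96 without KO1). Nop2, an RNA methyltransferase, and Gnl3 (nucleostemin) fell by 1.12 and 1.14 on the log2 scale (edgeR adjusted p = 0.0293 and 0.0309). Myc fell by 0.50 (edgeR adjusted p = 0.0454). KO1 was the lower of the knockout libraries in these genes.

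Of 13 heat shock chaperone genes edgeR called 0, with 6 at p under 0.05 before adjustment and 4 in DESeq2, and 12 of the 13 had a log2 fold change below 0; the abundant Hspa8 was at 6950.0 and 6783 CPM in wild type and 3639 and 5239 CPM in knockout (edgeR adjusted p = 0.0897, log2 fold change -0.63). Of 22 genes of the amino acid and endoplasmic reticulum stress response edgeR and DESeq2 each called 0, with 5 at an unadjusted p under 0.05, and the chaperone Hspa5 was at 1118 and 1211 CPM in wild type and 798 and 934 CPM in knockout (edgeR adjusted p = 0.139, log2 fold change -0.43).

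**Figure D4:**
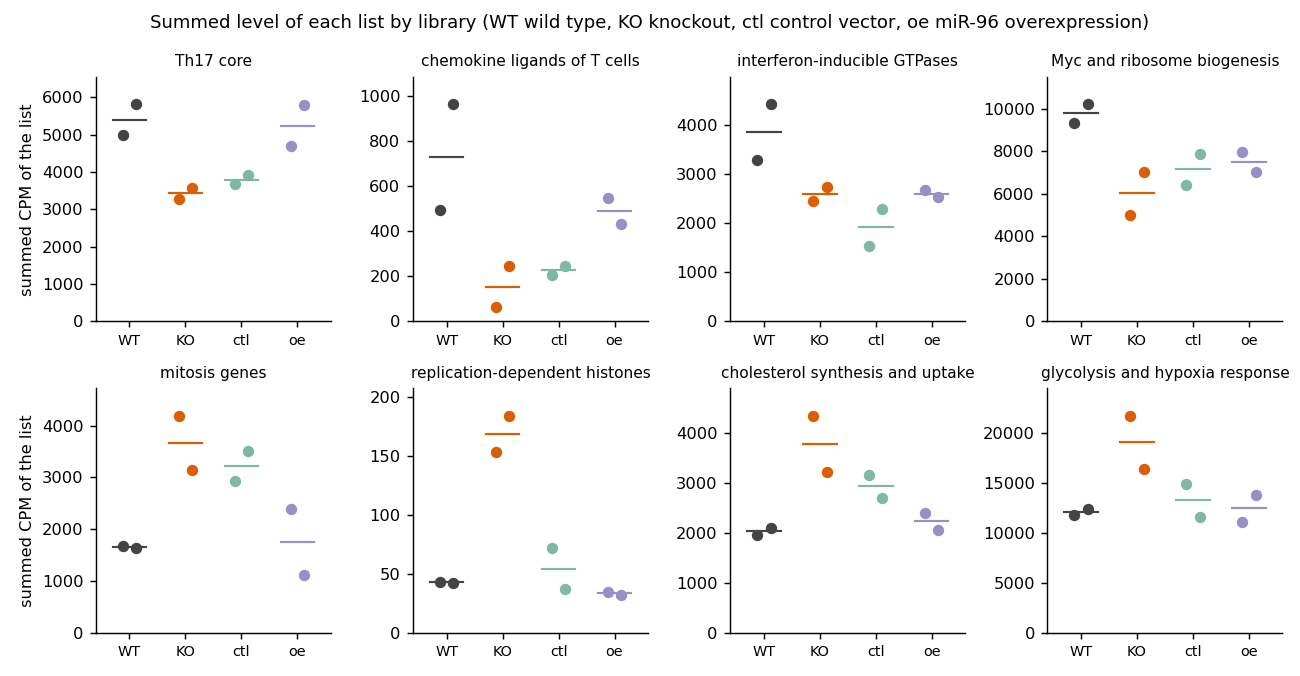
Summed CPM of the genes of each list (y axis, from 0) in each library of the 4 groups (x axis), with points for libraries and bars for group means. Knockout libraries lie above wild type for mitosis, histone, cholesterol and glycolysis lists and below it for Th17, chemokine ligand, GTPase and ribosome biogenesis lists.

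TGF-beta, with IL-6, starts Th17 differentiation, and genes of its pathway were called in both directions. Tgfbr1, the signalling receptor, fell from 59.2 and 63.8 CPM to 17.3 and 24.8 CPM (edgeR adjusted p = 0.0246, log2 fold change -1.54, SE 0.25, and -1.30 without KO1), and the co-receptor Tgfbr3 from 80.8 and 86.9 to 31.4 and 40.9 CPM (edgeR adjusted p = 0.0254, log2 fold change -1.21, SE 0.22). Skil, a repressor of SMAD signalling, fell by 0.84 on the log2 scale (edgeR adjusted p = 0.0260). Eng, which encodes the accessory receptor endoglin, rose from 5.61 and 3.67 to 17.9 and 10.6 CPM (edgeR adjusted p = 0.0298, log2 fold change 1.62, SE 0.35). Of 29 tested genes of the TGF-beta and BMP pathway 5 fell (also the activin chain Inhba and the BMP response gene Id1) and 3 rose (also the ligand Tgfb1 and the receptor Acvrl1), with a median log2 fold change of -0.15.

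The chains of the integrin that activates latent TGF-beta were lower. Itgav, the alpha-v chain, fell from 195 and 204 CPM to 59.2 and 91.0 CPM (edgeR adjusted p = 0.0246, log2 fold change -1.41, SE 0.24). Itgb8, its partner chain, was at 2.92 and 5.15 CPM in wild type and 0 and 0.238 CPM in knockout, where 2 counts remained; the ratio was 32.8, with a 95% interval of 8.77 to 276 for counting error only. Itga4, a chain of gut and brain homing integrins, fell by 0.74 on the log2 scale (edgeR adjusted p = 0.0463). Of 20 tested integrins these 3 fell and Itga7 rose.

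In signalling downstream of the T cell receptor, 2 of 18 tested genes fell and 1 rose, a share of 16.7% called against 13.0% of all tested genes. The costimulatory receptor Cd28 fell from 717 and 882 to 454 and 528 CPM (edgeR adjusted p = 0.0327, log2 fold change -0.70), the ubiquitin ligase Cblb by 0.62 on the log2 scale (edgeR adjusted p = 0.0449), and Dgka, a kinase that damps receptor signals, rose from 295 and 256 to 539 and 446 CPM (edgeR adjusted p = 0.0315, log2 fold change 0.84, SE 0.19). Among 19 immediate early genes, 2 rose and 3 fell. Fos was at 14.7 and 10.6 CPM in wild type and 60.7 and 34.4 CPM in knockout (edgeR adjusted p = 0.0246, log2 fold change 1.91, SE 0.29), and Fosb at 3.53 and 2.38 CPM in wild type and 14.1 and 12.7 CPM in knockout (edgeR adjusted p = 0.0248, log2 fold change 2.18), while Egr2 (edgeR adjusted p = 0.0403, log2 fold change -1.41) and the phosphatase Dusp2 (edgeR adjusted p = 0.0324, log2 fold change -0.62) fell.

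NF-kB subunits were lower where called, with Rel falling from 50.6 and 58.9 to 18.3 and 31.1 CPM and Nfkb1 from 935 and 894 to 397 and 531 CPM (edgeR adjusted p = 0.0400 and 0.0434), among 3 lower and 0 higher of 15 tested. In the IL-2 pathway, Stat5a fell from 304 and 336 to 196 and 193 CPM (edgeR adjusted p = 0.0447, log2 fold change -0.72) and Jak3 rose from 258 and 309.7 to 640.0 and 441 CPM (edgeR adjusted p = 0.0414, log2 fold change 0.93). They were the only calls among 13 genes, a share of 15.4% against 13.0% of all tested genes. Of 22 TNF superfamily genes 4 fell and 1 rose. Tnfrsf8, which encodes CD30, fell from 38.4 and 59.4 CPM to 5.55 and 9.89 CPM (edgeR adjusted p = 0.0217, log2 fold change -2.65, SE 0.30, and -2.29 without KO1), with the control vector libraries at 37.3 and 35.3 and the miR-96 libraries at 45.3 and 54.7 CPM. The control vector libraries thus lay above the knockout for this gene. Tnf fell (edgeR adjusted p = 0.0400, log2 fold change -1.65), as did lymphotoxin alpha (Lta; edgeR adjusted p = 0.0461, log2 fold change -0.56), and the death receptor Fas rose from 39.4 and 32.9 to 55.3 and 56.3 CPM (edgeR adjusted p = 0.0359, log2 fold change 0.63).

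Of 12 tested genes of inhibitory receptors and ectonucleotidases edgeR called 0, with 6 at p under 0.05 before adjustment and 5 in DESeq2. The log2 fold change was below 0 in 10 of the 12, with a median of -0.57, or -0.43 without KO1. Among the 12, Cd5, a damper of receptor signals, was at 611 and 677 CPM in wild type and 888 and 758 CPM in knockout. Cd200, an inhibitory ligand, was at 373 and 471 CPM in wild type and 259 and 294 CPM in knockout (edgeR adjusted p = 0.0574, log2 fold change -0.61). In the BCL2 family 2 of 16 genes fell, a share of 12.5% against 13.0% of all tested genes. They were the survival factor Bcl2l1 (edgeR adjusted p = 0.0315, log2 fold change -0.68) and the death-promoting Bid (edgeR adjusted p = 0.0427, log2 fold change -0.89). Bcl2 overlapped between genotypes at 500.1 and 457 CPM in wild type and 464 and 480.0 CPM in knockout. Genes that make and use microRNAs were lower where called: Dicer1, which cuts hairpin precursors, fell from 162 and 156 to 70.2 and 104 CPM (edgeR adjusted p = 0.0317, log2 fold change -0.87, SE 0.20), the silencing scaffold Tnrc6a from 220.1 and 205 to 97.8 and 137 CPM (edgeR adjusted p = 0.0332, log2 fold change -0.86) and the helicase Ddx17 by 0.66 on the log2 scale (edgeR adjusted p = 0.0317), 3 of 15 tested.

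The largest rises among genes whose log2 CPM averaged 3 or more were led by an integrin chain. Itga7, the laminin-binding integrin chain of muscle, was at 20.3 and 9.51 CPM in WT1 and WT2 and at 307 and 149 CPM in KO1 and KO2 (edgeR adjusted p = 0.0400, log2 fold change 3.95, SE 1.02). It also varied within the other groups, at 139 and 21.7 CPM with the control vector and 22.0 and 127 CPM in the miR-96 libraries. Myh11, a smooth muscle myosin, rose from 2.32 and 0.991 to 26 and 10.8 CPM (edgeR adjusted p = 0.0246, log2 fold change 3.49, SE 0.52), and Acvrl1, the BMP receptor ALK1 of endothelium, from 4.26 and 1.98 to 37.9 and 18.2 CPM (edgeR adjusted p = 0.0447, log2 fold change 3.18, SE 0.86). Among other smooth muscle markers, Acta2, Cnn1 and Lmod1 were at 0 in the wild-type and knockout libraries and Mylk was at 5.97 and 11.5 CPM in wild type and 3.65 and 1.79 CPM in knockout. Among endothelial markers Emcn and Cldn5 were at 0 and Pecam1, which T cells also express, was at 47.2 and 34.6 CPM in wild type and 51.5 and 50.9 CPM in knockout. Eng, described above, is also an endothelial marker and rose by 1.62 on the log2 scale. Of the 3 endothelial markers tested, all 3 lay above 0 and 2, Acvrl1 and Eng, were called higher (66.7%, against 13.0% of all tested genes).

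Next in size came Tubb2b, a beta-tubulin, which rose from 5.48 and 4.16 to 51.4 and 27.9 CPM, Mgarp, a mitochondrial protein, from 3.78 and 5.25 to 44.5 and 29.3 CPM, and the matrix glycoprotein Emilin2 from 4.26 and 9.71 to 70.2 and 42.9 CPM (edgeR adjusted p = 0.0315, 0.0317 and 0.0272). Dntt, the terminal transferase of developing lymphocytes, was at 2.80 and 1.19 CPM in wild type and 21.0 and 10.5 CPM in knockout (edgeR adjusted p = 0.0454, log2 fold change 2.99). Mpp2, a membrane scaffold protein, rose from 7.19 and 4.46 to 58.4 and 31.3 CPM (edgeR adjusted p = 0.0219, log2 fold change 2.95, SE 0.34). Clybl, a mitochondrial lyase, rose by 2.95 and Gipr, the receptor for an incretin hormone, by 2.78 on the log2 scale (edgeR adjusted p = 0.0370 and 0.0460). In all 10 of these genes KO1 was the higher of the knockout libraries, and KO1 was also the farther from wild type in 1467 of all 1544 called genes. Both knockout libraries exceeded both wild-type libraries in all 10, which was a condition of their choice. Emilin2 was at 8.63 and 2.13 CPM with the control vector and at 5.68 and 10.8 CPM with miR-96.

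Reported targets of the cluster were called about as often as other genes. Of 32 listed genes 29 were tested, 1 rose and 3 fell (13.8% called, against 13.0% of all tested genes), and their median log2 fold change was -0.02, against -0.01 for all tested genes. Odf2, a centriole protein, rose from 64.3 and 50.0 CPM to 123 and 91.6 CPM (edgeR adjusted p = 0.0272, log2 fold change 0.91, SE 0.18). The kinase Taok1 fell from 122 and 112 to 66.3 and 76.2 CPM (edgeR adjusted p = 0.0272, log2 fold change -0.71, SE 0.14), Rasa1, a Ras inhibitor, from 258 and 233 to 98.2 and 152 CPM (edgeR adjusted p = 0.0394, log2 fold change -0.97, SE 0.25), and the ubiquitin ligase subunit Fbxw7 from 64.1 and 72.0 to 39.5 and 45.4 CPM (edgeR adjusted p = 0.0400, log2 fold change -0.68). The median changed sign under some alternatives, reaching 0.02 at most when a library was left out.

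A match to a seed was then sought in the longest annotated 3′ UTR of each tested gene, on the transcript strand, as GTGCCAT for miR-183, GTGCCAA for miR-96 and TTGCCAA for miR-182 (no position can match more than one). Of 11391 tested genes with an annotated 3′ UTR, 3323 (29.2%) held at least one match: 1348 (11.8%) for miR-183, 1192 (10.5%) for miR-96 and 1555 (13.7%) for miR-182. Genes with a match had a median log2 fold change of -0.06 and those without one of 0.02, a difference of -0.09 (SD 0.01 over the 2 knockout libraries), so the median of genes with a match was slightly lower in the knockout. The difference was -0.0975 for KO1 against WT1, -0.0790 for KO1 against WT2, -0.0882 for KO2 against WT1 and -0.0618 for KO2 against WT2. Of genes with a match 193 were called higher and 274 lower, and of the 8068 without one 581 and 466. These counts are a description and carry no test.

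Length of the UTR moved with the presence of a match. Median UTR length was 2436 bases in genes with a match and 1002 bases in those without, and the share of genes with a match was 6.52% in the shortest of 4 groups of genes by UTR length and 57.0% in the longest. The median log2 fold change itself went from 0.13 in the shortest group (9 to 611 bases) to -0.15 in the longest (2498 bases or more). Within the 4 groups the difference between genes with and without a match was 0.0139, 0.0309, 0.0268 and 0.0003, so that within a group genes with a match were not lower. Genes with matches for all 3 microRNAs numbered 73, had a median UTR of 5751 bases and a median log2 fold change of -0.25.

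**Figure D5:**
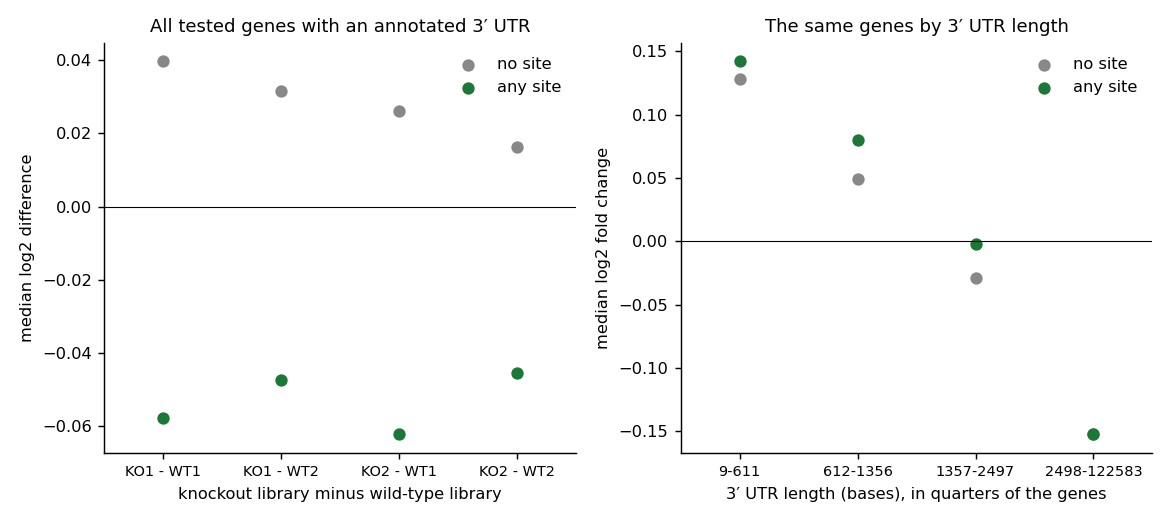
Left: median log2 difference of each knockout library from each wild-type library (x axis) for genes with any seed match (green) and none (grey); right: median log2 fold change of the same genes in 4 groups by 3′ UTR length in bases. On the left the difference of genes with a match from the others lies between -0.0975 and -0.0618, and on the right the points of a length group lie within 0.0309 of each other.

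Matches in called genes are shown for the 4 with the smallest p, to set sequence beside response, with the 7 matching bases in capitals (GRCm38; Tnfrsf8 on the minus strand, the others on the plus strand). Ms4a4b and Hmgcs1 rose and Tnfrsf8 and Foxp3 fell, so genes with the same match moved in both directions.
Ms4a4b, miR-183 match (chr19:11463858-11463880): ggtcccaagtaGTGCCATtattt
Hmgcs1, miR-96 match (chr13:119707942-119707964): ttaacgtttggGTGCCAAgaagt
Tnfrsf8, miR-183 match (chr4:145268389-145268411): cttaacactttGTGCCATtatct
Tnfrsf8, miR-183 match (chr4:145267817-145267839): ggagcagctgaGTGCCATcagag
Foxp3, miR-96 match (chrX:7593218-7593240): agctgagagggGTGCCAAtccca
Ms4a4b, a membrane protein of T cells, was at 42.9 and 35.0 CPM in WT1 and WT2 and 125 and 126 CPM in KO1 and KO2 (edgeR adjusted p = 0.0217, log2 fold change 1.69, SE 0.19, and 1.71 without KO1). Its knockout libraries were nearly equal, and its levels were 54.7 and 68.1 CPM with the control vector and 50.7 and 38.3 CPM in the miR-96 libraries.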

How the data were processed

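RNA of 8 Th17 libraries was sequenced, 2 each from wild-type, knockout, control vector and miR-96 overexpressing cells. The authors deposited 1 table of estimated counts per gene, which need not be whole; per the submitters' processing notes, the authors used genome build mm10 and the tools STAR 2.3.0, edgeR, Partek and bcl2fastq 2.16.0.10. Totals were 7142429 to 12452659 per library. Left out were 27 lines whose symbols had become dates, with at most 0.243% of a library's counts. Estimated counts were rounded and tested with edgeR 4.0.16 in R 4.3.3: TMM factors, filterByExpr (11851 genes kept), quasi-likelihood F tests on all 8 libraries with a term per group, and Benjamini-Hochberg adjustment over all tested genes, called at an adjusted p under 0.05. All log2 fold changes are knockout minus wild type, and levels are CPM on TMM-scaled library sizes. A fold against a group at 0 sets that group to 3 counts in all. Seed matches were read from GENCODE M21 on mm10. The fit was also run on counts simulated with a common spread for all genes and no outlying library. It called 2.99% of 1.5-fold, 35.8% of 2-fold and 95.4% of 4-fold changes. Without an outlying library, the simulation cannot show how calls behave when 1 library stands apart as KO1 did.

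The genes and lists were chosen with earlier results of these data known. Named were Foxo1, the cluster's genes, the 10 largest called changes each way at an average log2 CPM of 3 or more, up to 4 called genes per list by smallest p (or the 2 most abundant where none was called), the 3 most abundant genes of each cell type list, called genes within 5 Mb of the cluster, and Foxo1 and 4 called genes with a seed match. Named after their values were seen were Batf, Csf2, Foxo3, Gzmb, Hsd17b7, Idi1, Il22, Il23r, Il7r, Irf9, Myc, Srebf2, Stat2 and Stat3, and the markers given as being at 0. Alternatives were other scalings, filters, DESeq2 1.42.0, fits on the 4 libraries or with a replicate block, and leaving out libraries. Some genes are not reported here.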

Additional observations from a re-analysis of the deposited data

How the results depend on the processing

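With 2 libraries a genotype, calls depended on single libraries more than on scaling. The count of 1544 called genes (786 higher, 758 lower) ran from 0 to 1975 when any one of the 8 libraries was left out (higher 0 to 1011, lower 0 to 1052). It was 1 (0 higher, 1 lower) with WT1 and KO1 both left out, 3151 (1671 and 1480) with no filter on low counts and 2641 (1461 and 1180) in a fit of the 4 libraries alone. It was 1522 with RLE factors, 1501 with upper-quartile factors, 1602 with the filter of 10 counts in 2 of 4 libraries and 2220 (1127 and 1093) with DESeq2, of which 1515 were shared with the edgeR calls. Leaving out libraries also leaves fewer degrees of freedom and another set of tested genes. Every called gene that could be tested kept its direction under all 18 alternatives. With no overlap between the genotypes in any called gene, there was little room for another outcome. Over the named genes, 2404 values kept their direction and side of the threshold, 566 were no longer called, 75 became called and 19 changed sign.

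The sign changes were of genes that were not called. When one library was left out, the log2 fold change of Ctla4 ran from -0.4331 to 0.1814 (above 0 without WT2 or KO2), of Lyz2 from -1.6 to 0.6675 (likewise), of Lum from -0.4819 to 0.0245 (above 0 without WT2), of Bcl2 from -0.0882 to 0.0402, of Zbtb46 from -0.6443 to 0.762 and of Ddx3y from -0.4954 to 0.7134. With WT1 and KO1 both left out Bcl2 was 0.0702 and Zbtb46 -1.08. With upper-quartile factors Bcl2 was 0.051 and Ddx3y 0.0594, and with the replicate block Ddx3y was 0.0912 (8 libraries) and 0.0822 (4 libraries).

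Whether libraries with the same replicate number were paired is not stated and was not tested. Across tested genes, the log2 difference of KO1 from KO2 had a correlation of 0.0953 with that of WT1 from WT2. With the replicate number as a block 1320 genes were called in the 8 libraries, against 1544 without it. In the 4 libraries 3714 (1973 higher, 1741 lower) were called with the block, against 2641 without it. Of the named genes, Bach2, Cd3e, Cd44, Gipr, H2-Ob, Il12rb2, Inhba, Itga4, Jak3, Lig1, Lta, Myc, Prf1, Sh2d1a, Stat5a and Tcf7 were not called with the block in 8 libraries (edgeR adjusted p = 0.0516 to 0.0662).

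The seed match difference of -0.09 was -0.1173 for matches with an A opposite the first base and -0.0732 in the shortest annotated 3′ UTR, and -0.0907 to -0.0713 when 1 of the 4 libraries was left out. Depth limits genes of low level, where 1 count is a large share of a value. The cause of these shifts was not tested.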

Other observations

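Genes next to the deleted cluster on chromosome 6 were called about as seldom as elsewhere or less. Within 5 Mb of the cluster 37 genes were tested and 2 called (5.41%), and on the whole chromosome 72 of 556 (12.9%). Ube2h, a ubiquitin-conjugating enzyme gene whose annotated end lies 41.6 kb from the cluster, was at 114 and 87.3 CPM in wild type and 240.0 and 184 CPM in knockout, a rise of 1.08 on the log2 scale (edgeR adjusted p = 0.0453). Zfp800, a zinc finger gene, went from 81.9 and 102 to 38.8 and 54.8 CPM (log2 fold change -0.97). Nrf1, the tested gene nearest to the cluster at 12.5 kb, was not called (log2 fold change 0.19, edgeR adjusted p = 0.520). Across the autosomes and the X chromosome the called share ran from 10.1% (X) to 17.5% (chromosome 13).

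Called genes were more frequent among the 6760 tested genes whose estimated count was not whole in KO1 but whole in KO2 (15.1%) than among the others (10.2%). The median log2 difference of KO1 and KO2 was 0.00747 in the former and 0.0235 in the latter. The part of these values in the calls was not tested.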
